A study of Drosophila melanogaster with 2 samples.

Results

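Gene-proximal intronic peaks of the Drosophila protein CG3065 were described, that is, binding peaks whose summit lay inside a protein-coding gene but in no annotated exon, more than 500 and at most 5000 bp from the nearest protein-coding transcription start site. There were 506 such peaks among the 2451 peaks that the authors kept by the irreproducible discovery rate (IDR), a measure of how alike peaks rank in replicates, which is 20.6% of the list. They were chosen by position alone, against the Ensembl BDGP6 annotation, so their positions follow from the choice and only their distribution within these limits is a description of the data. Every sample was 1 kind of material: whole mixed-sex embryos aged 0 to 16 h of a stable transgenic line, labelled CG3065-GFP, in which green fluorescent protein (GFP) is fused to the C-terminus of CG3065. Chromatin sonicated to 200-800 bp was precipitated with an antibody against GFP and sequenced, in 2 biological replicates numbered 1 and 3. There was 1 group and no contrast, so no test was made and shares and densities stand beside their counting intervals. The antibody sees the fusion protein, the embryos are a pool of all tissues and of stages from the earliest cleavages to organ formation, and a peak does not say in which cells or at which stage the DNA was bound.

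CG3065 belongs to the Sp/KLF family, whose members bind DNA through a row of C2H2 zinc fingers at the C-terminal end and recognise GC boxes and related CACCC boxes. The family includes activators and repressors of growth, metabolism and cell fate genes in flies and vertebrates. Introns close to a start site are a common home of regulatory DNA in the fly, where enhancers often lie in the first, longest intron of developmental genes, and where alternative promoters and small nested genes also sit. A transcription factor may therefore be found in an intron at an enhancer of the host gene, near an alternative start, or at DNA that belongs to another gene.

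The sequence under the strongest of these summits is shown because it differs from peak to peak. The following windows, which reach 50 bp to either side of the summit, belong to the 5 intronic peaks of highest signal and to a peak in cno, the seventh, and were read from the RefSeq sequence of Release 6 (dm6). Lower case marks the genome, and capitals mark a match to the Sp/KLF box, defined as the word CACACCC, or the related word CACGCCC, or the word CCCACCC, or lastly CCCGCCC, on either strand.
ush chr2L:481035-481135 (plus strand): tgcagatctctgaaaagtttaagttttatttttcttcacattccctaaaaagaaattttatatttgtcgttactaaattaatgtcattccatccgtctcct
CG11050 chr2L:6612666-6612766 (plus strand): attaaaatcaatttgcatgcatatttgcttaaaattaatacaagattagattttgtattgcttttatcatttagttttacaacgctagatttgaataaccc
CG9663 chr2L:3302137-3302237 (plus strand): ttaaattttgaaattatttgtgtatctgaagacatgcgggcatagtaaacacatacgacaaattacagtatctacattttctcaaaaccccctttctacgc
Lk6 chr3R:11760988-11761088 (plus strand): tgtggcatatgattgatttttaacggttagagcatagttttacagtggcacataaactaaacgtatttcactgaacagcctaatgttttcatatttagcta
COX7AL2 chr2L:2196823-2196923 (plus strand): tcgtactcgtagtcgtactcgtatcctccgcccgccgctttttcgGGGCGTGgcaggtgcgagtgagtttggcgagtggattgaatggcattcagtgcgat
cno chr3R:5215482-5215582 (plus strand): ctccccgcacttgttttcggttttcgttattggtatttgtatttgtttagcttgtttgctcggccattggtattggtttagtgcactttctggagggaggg
Only the window of COX7AL2 held the box among these 6, close to its centre. The GC content of the windows ran from 23.8% in CG11050 to 57.4% in COX7AL2.

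The strongest intronic peaks with a box, apart from COX7AL2 and apart from peaks on an arm whose sequence is not shown, lay in fru, siz, CG14434 and Abd-B. Capitals again mark the box.
fru chr3R:18507857-18507957 (plus strand): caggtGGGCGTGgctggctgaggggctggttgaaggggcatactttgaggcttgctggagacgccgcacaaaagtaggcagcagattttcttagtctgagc
siz chr3L:21049492-21049592 (plus strand): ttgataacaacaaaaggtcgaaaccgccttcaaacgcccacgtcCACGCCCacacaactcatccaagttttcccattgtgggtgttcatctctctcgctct
CG14434 chrX:6853602-6853702 (plus strand): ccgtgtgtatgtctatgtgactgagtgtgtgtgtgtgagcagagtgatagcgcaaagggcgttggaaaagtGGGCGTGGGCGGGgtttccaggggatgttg
Abd-B chr3R:16934856-16934956 (plus strand): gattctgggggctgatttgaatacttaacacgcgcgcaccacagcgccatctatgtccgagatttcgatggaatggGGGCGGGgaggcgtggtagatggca
CG14434 carried 2 overlapping box words in 1 run. In Abd-B, a Hox gene of the posterior abdomen, the box was the word CCCGCCC on the opposite strand.

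The word CACGCCC was found most often and is shown at 12 members of high signal that contain it, aligned on the word in capitals, with 8 bases on either side. All are written 5′ to 3′ on the strand that reads CACGCCC.
COX7AL2 chr2L:2196860-2196882 (minus strand): gcacctgcCACGCCCcgaaaaag
fru chr3R:18507854-18507876 (minus strand): cagccagcCACGCCCacctggca
siz chr3L:21049528-21049550 (plus strand): cccacgtcCACGCCCacacaact
CG14434 chrX:6853665-6853687 (minus strand): accccgccCACGCCCacttttcc
htl chr3R:18050276-18050298 (plus strand): cccgtcgcCACGCCCacagtcag
spi chr2L:19576400-19576422 (plus strand): gcacctgcCACGCCCagcagccc
Rab10 chrX:20251870-20251892 (minus strand): ggcagtgcCACGCCCagtcacac
InR chr3R:21616076-21616098 (minus strand): tccgctgcCACGCCCacacatgc
sick chr2L:19866727-19866749 (plus strand): gcgattgcCACGCCCcttgttag
rols chr3L:12063852-12063874 (minus strand): cttcgcgcCACGCCCcttggcgc
Cadps chr4:1232689-1232711 (plus strand): aatgttgcCACGCCCacaaaccg
GramD1B chr2L:3372745-3372767 (minus strand): cgcccccgCACGCCCacctgccc
The bases GC stood directly before the word in 9 of these 12 sites, and an A or a C followed it in all 12. Over all 48 sites of the word near the intronic summits, A followed in 45.8% and C in 41.7%. In all intron that meets the location rule the shares were close to these, at 42.5% and 39.4% of 1994 sites. The hosts include fru, a BTB zinc finger gene of courtship and neural development, htl, an FGF receptor of the mesoderm, spi, the main ligand of the EGF receptor, and InR, the insulin receptor.

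The strongest intronic peak lay in ush, which encodes a zinc finger cofactor of GATA factors. Its summit at 481085 on 2L had a pooled signal of 752, with 360 in replicate 1 and 389 in replicate 3. Signal is the authors' value for each peak and has no stated unit, and the scales of the pooled and replicate lists are not shared. The summit lay in the first intron of ush, 4865 bp from the nearest start of ush, but only 1397 bp upstream of the start of cbt, a gene nested in ush. cbt encodes cabut, itself a member of the Sp/KLF family. CG11050 followed with 699 pooled, 413 in replicate 1 and 293 in replicate 3. CG9663, which encodes an ABC transporter, had 681, 340 and 331 in the same order. In Lk6, a kinase gene of the Mnk family that acts on translation initiation, the values were 673, 344 and 322. These 4 peaks were each strong in both replicates.

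COX7AL2, named for a cytochrome c oxidase subunit, had a pooled signal of 635, with 405 in replicate 1 and 231 in replicate 3. The summit in HmgZ, a gene of an HMG-box chromatin protein, was at 548, with 261 and 290. In cno, the gene of the junction protein Canoe (afadin in vertebrates), the peak had 483, with 311 and 169. COX7AL2 and cno were the members of this group with the higher value in replicate 1 by the widest margin. CG32772 had 476 pooled, 223 in replicate 1 and 244 in replicate 3. Trl, which encodes GAGA factor, had 431, 234 and 199. fru had 424, 213 and 210. Tlk, the Tousled-like kinase gene of chromatin assembly, had 408, 216 and 191, and mub, a gene of a KH-domain RNA-binding protein, had 377, 192 and 190. Across these 12 peaks the signal ran from 192 to 413 in replicate 1 and from 169 to 389 in replicate 3, and none ranked below 77 and 82 of all relaxed peaks of the respective replicate. Of the 12, 6 were in first introns, 3 in later introns and 3 in introns that are first in some transcripts.

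Over all 506 intronic peaks the pooled signal ran from 81.5 to 752, with a median of 115 and quartiles of 95.5 and 151. Promoter peaks, no farther than 500 bp from such a start site, had a median of 120, the 211 IDR peaks at the same distance outside protein-coding genes had 109, and the 233 intronic IDR peaks beyond 5000 bp had 107. Above the median of the IDR list lay 248 of the intronic peaks, or 49%, beside 50% of all IDR peaks by construction. They made up 6 of the 25 strongest IDR peaks, 20 of the 100 strongest and 96 of the 500 strongest, or 19.2%, close to their share of the whole list. The share above that median was 54.4% of promoter peaks, 43.1% of proximal peaks outside protein-coding genes and 38.2% of intronic peaks beyond 5000 bp. Signal hardly varied with distance within the class (Spearman's rho = -0.04 across 506 peaks) or with GC content (rho = -0.05). The class, like the whole list, begins where the authors' threshold falls. The weakest members were in chn at 81.5 and 14-3-3zeta at 81.6, and the strongest relaxed peaks at eligible positions outside the IDR list were in Abd-B and nsl1, both at 80.9. Of all 30000 pooled relaxed peaks, 8.17% are in the IDR list, a share that follows from the threshold.

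The replicates were compared through their own relaxed lists, which the authors named peaks and background, so that an entry there need not mark binding. Of the 506 intronic peaks, 500 had a relaxed summit within 200 bp in both replicates (98.8%, 95% Clopper-Pearson interval 97.4 to 99.6), beside 99.2% of all IDR peaks. The IDR list equals the pooled peaks of highest signal, and the pooled reads are those of both replicates, so this share is in part built in. The other 6 lacked a summit in replicate 1 (4 peaks) or in replicate 3 (2 peaks). They lay in ATP8B, CCHa2-R, Maf1, brat, prage and wun, with pooled signals from 81.9 to 157. Among the matched peaks the median signal was 63.9 in replicate 1 and 52.3 in replicate 3, with ranges from 15.7 to 413 and from 14.8 to 389. The summit in a replicate lay a median of 7 bp from the pooled summit in replicate 1 and 14 bp in replicate 3.

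**Figure D1:**
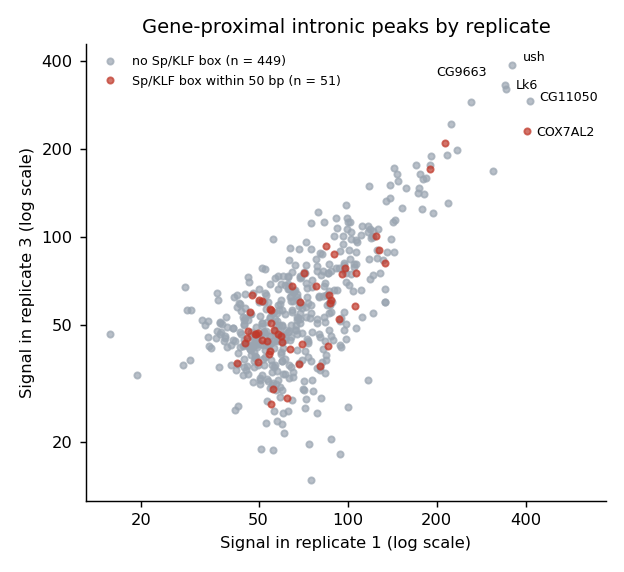
Signal of each of the 500 intronic peaks matched in both replicates, replicate 1 on the horizontal and replicate 3 on the vertical axis, both in the authors' units on log scales. Red points hold the Sp/KLF box within 50 bp of the summit; the 5 strongest are named, and the red points lie throughout the cloud.

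The order of the intronic peaks was shared in part by the replicates. Spearman's rho between the replicates was 0.56 over the 500 matched intronic peaks, 0.62 over promoter peaks and 0.42 over intronic peaks beyond 5000 bp. These describe peaks of the same libraries, which share a depth and a local background. Of the intronic peaks, 356 ranked within the first 2451 in both replicate lists (70.4%, 66.2 to 74.3), beside 68.9% of all IDR peaks. Some ranked far lower in 1 replicate, down to rank 18380 in replicate 1 and 22261 in replicate 3. The first of these is a peak in CG1677 with 15.7 in replicate 1 and 46.9 in replicate 3. The plot by replicate shows this spread to be widest among the weaker peaks.

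To read the positions against the space they could occupy, the bases that meet the location rule, called eligible intron here, were counted. They came to 21.2 Mb, so the intronic IDR peaks had a density of 23.9 per Mb (95% exact Poisson interval 21.8 to 26.1). Intron beyond 5000 bp held 8.53 per Mb (7.47 to 9.69), sequence at 500 to 5000 bp outside protein-coding genes held 16.9 and promoters held 80.6. The intervals cover counting error only and treat peaks as independent, although 58 of the intronic peaks had another within 1000 bp.

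Within the class the density fell with distance from the start site. It was 45.1 per Mb at 500 to 1000 bp (38.6 to 52.3; 173 peaks), 26.2 at 1000 to 1500 bp (86 peaks) and 20.3 at 1500 to 2000 bp. It was 12.7 at 4000 to 4500 bp (7.74 to 19.6) and 14.5 at 4500 to 5000 bp (8.99 to 22.2; 21 peaks). The intervals of the nearest and the farthest bins do not overlap. The pooled relaxed peaks outside the IDR list also thinned out over the same introns, from 332 to 249 per Mb, a smaller relative fall. The median distance of an intronic IDR peak was 1459 bp, with quartiles of 849 and 2749 bp. Peaks of like signal lay on both sides of the distance limits. Just inside 500 bp were peaks in Msp300 at 504 bp with a signal of 93.1 and in CG42671 at 505 bp with 115, and just outside were peaks near Pdp1 at 499 bp with 87.9 and jar at 490 bp with 191. At 5000 bp the nearest peaks inside were in cno at 4995 bp with 124 and in Pdk at 4979 bp with 119, and outside in Mnt at 5026 bp with 94.1 and RhoGAP19D at 5031 bp with 137.

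**Figure D2:**
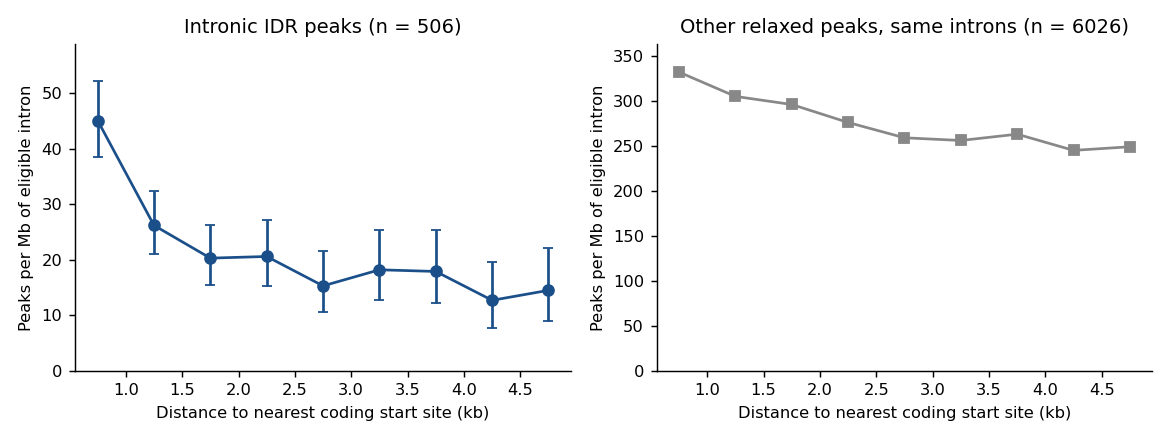
Peaks per Mb of eligible intron in bins of 500 bp of distance to the nearest protein-coding start site, for the 506 intronic IDR peaks (left, bars are exact 95% Poisson intervals) and for the 6026 other pooled relaxed peaks in the same introns (right). The left curve falls from 45.1 to 14.5 per Mb, the right from 332 to 249, and the vertical scales differ.

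First introns held more of the peaks than their length alone. An intron was counted as first where the summit was in intron 1 of every transcript of the host that spans it, and as later where it was in intron 1 of none. Of the 506 peaks, 263 were in first introns (52%, 47.5 to 56.4), which made up 39.1% of eligible bases, and 113 were in later introns (22.3%, 18.8 to 26.2), which made up 41.2%. The other 130 were in introns that are first in some transcripts only. The density was 31.8 per Mb in first introns (28 to 35.9), 31 in those first in some transcripts and 12.9 in later ones (10.7 to 15.6). The other relaxed peaks showed the same order with a smaller ratio, at 342, 336 and 205 per Mb. The signal of the IDR peaks was alike in the 3 kinds, with medians of 119, 111 and 112.

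Peaks in first introns were nearer to a start site, at a median of 1270 bp against 2316 bp in later introns, so the kinds were compared at like distances. At 500 to 1000 bp first introns held 53 per Mb (43.2 to 64.3) and later introns 24.3 (16 to 35.3). At 1000 to 2000 bp the values were 34 (27.2 to 41.9) and 9.74 (6.11 to 14.8). At 2000 to 5000 bp they were 19.5 (15.3 to 24.5) and 11.9 (9.2 to 15.3), where the intervals meet at their ends. First introns thus had a higher density than later ones in each distance range. The host's own start was nearest for 244 of 263 peaks in first introns and for 80 of 113 in later ones. Neither this nor intron length was matched. Introns that are first in some transcripts held 54.9, 26.8 and 24.5 per Mb in the 3 ranges, above first introns in the nearest and the farthest. The other relaxed peaks had 399, 358 and 302 per Mb in first introns and 212, 202 and 204 in later ones, so they were denser in first introns as well.

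**Figure D3:**
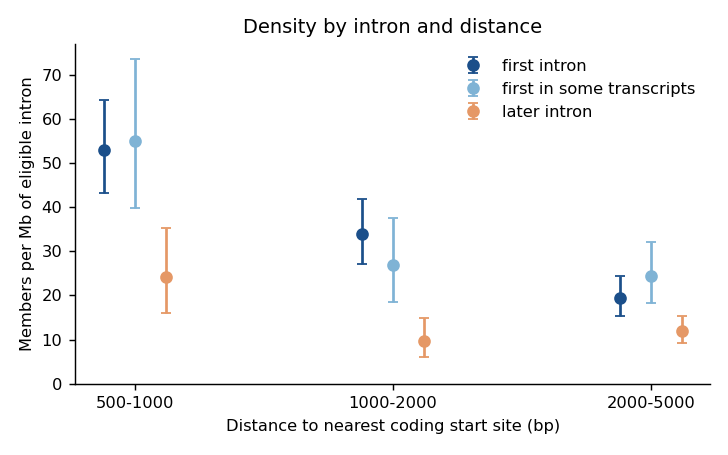
Density of intronic IDR peaks per Mb of eligible intron, by distance to the nearest protein-coding start site and by kind of intron, with exact 95% Poisson intervals. Later introns lie lowest in each range, at 24.3, 9.74 and 11.9 per Mb.

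Short introns were poor in peaks. Where transcripts of the host differ, the length is that of the shortest intron that covers the position. In introns under 1000 bp there were 34 peaks, or 9.85 per Mb (6.82 to 13.8), whereas introns of 1000 to 4999 bp held 27.4, of 5000 to 9999 bp 28.2, of 10000 to 29999 bp 24.1 and longer ones 28.1. Above 1000 bp the density was therefore nearly flat with length. The other relaxed peaks were likewise fewest in introns under 1000 bp, at 160 per Mb, and most in those of 1000 to 4999 bp, at 327. By this shortest length the median over the intronic peaks was 7200 bp.

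Most of the peaks lay nearest to a start of the gene they were in. This held for 446 of 506 (88.1%, 85 to 90.8), while 75.4% of eligible bases have the host's own start nearest. Of the 446, 300 lay downstream of that start, at 24.1 per Mb (21.4 to 27). The other 146 lay upstream of it, inside the gene but before an alternative start, at 41.5 per Mb (35 to 48.8), in 122 genes. The remaining 60 were nearest to a start of another gene, at 11.5 per Mb (8.79 to 14.8), and for 50 of them that gene was nested inside the host. Intron before an alternative start, at up to 5000 bp from it, thus had the highest density of the 3. The median distance to the nearest start was 1446 bp downstream, 1313 bp upstream and 2394 bp for starts of other genes. These 3 kinds were not compared at like distances. The other relaxed peaks had 304, 352 and 192 per Mb in the same order.

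CG1677 on X held 9 of the peaks, the most of any gene. All 9 were in the second intron of its longest transcript, with signals from 83.8 to 183, and none was nearest to a start of CG1677. Instead 4 were nearest to unc-119, 2 to brk, 1 to CG42780 and 2 to CBP, which all sit inside CG1677. brk encodes Brinker, the repressor of Dpp target genes, and its peaks had signals of 170 and 132, with 91.4 and 58.8 in replicate 3. In replicate 1 both fell on a single relaxed peak of 75.2, so they are not separate measurements there.

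Tlk held 5 peaks, with the strongest at 408 and the other 4 between 91.9 and 120. CHES-1-like, a gene of a forkhead factor, held 4 in its first intron, with signals of 270, 204, 184 and 129. Raf, the kinase that links Ras to MAP kinase signalling, held 4 in the second intron of its longest transcript, with 347, 135, 107 and 88.3. mam, which encodes the Notch coactivator Mastermind, held 4 with 174, 168, 137 and 111, of which those of 168 and 111 had a Sp/KLF box. sick held 4 with 228, 149, 119 and 93, of which those of 119 and 93 were nearest to CG10481 and CG13962. In the genes with several peaks the strongest stood well apart in Tlk and Raf and did not in mam.

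In all, 394 genes held the 506 peaks, which is 4.38% of the 8996 genes with eligible bases. Of these, 320 held 1 peak, 49 held 2, 18 held 3, 5 held 4, 1 held 5 and 1 held 9. Peaks were counted by summit, and an interval of the list can hold more than 1 summit. In HmgZ the peaks of 548 and 138 have the same interval, from 21703257 to 21703616 on 2R. Host genes were long, with a median of 17705 bp against 3496 bp over genes with eligible bases. The share of genes that held a peak rose with eligible length, from 0.404% of genes with under 1000 eligible bases to 25.2% of those with 10000 or more. By arm the density was 21.5 per Mb on 3R, 22.4 on 3L, 23.7 on 2R, 24.4 on 2L and 28.1 on X (23.3 to 33.5), where intervals overlap, and chromosome 4 held 3 peaks.

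Host genes more often had a promoter peak too. At 500 bp or less from one of their own starts, 118 of 394 hosts also had an IDR summit (29.9%, 25.5 to 34.7), beside 14.4% of all genes with eligible bases and 13.7% of those without an intronic peak. Among genes of 10000 or more eligible bases the shares were 34.1% of hosts and 18.5% of the others, and among those of 2500 to 4999 they were 25% and 12.7%. Hosts had the higher share in each of 5 length ranges. Hosts have more start sites, with a median of 2 against 1 over genes with eligible bases. With 1 start site counted per gene the shares were 16.6% of hosts and 12.3% of genes with eligible bases. The nearest promoter peak was a median of 2472 bp away, and for 24 hosts it was within 1000 bp, where reads of both peaks can overlap.

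Genes of developmental signalling were looked up in lists chosen by function, against the 4.38% of all eligible genes. Each list is a selection and not the whole of its pathway, so its counts hold for the listed genes only. In the EGF receptor, Ras and MAP kinase pathway, 6 of 22 eligible genes held 12 peaks with a median signal of 147. Among them were the ligand gene spi at 182, the gene of the membrane protein Star (S), which lets the ligand leave the endoplasmic reticulum, at 210, the adaptor gene drk at 134 and Raf at 347. aos, the gene of the secreted inhibitor Argos, had 256, and aop, the gene of the ETS repressor Yan, held 3 peaks of up to 167. The other 16 eligible genes held none. A peak in Ptp61F, a gene outside the list, was nearest to the start of ru, which is in it. The peak in drk was nearest to the start of mars, 877 bp away against 2549 bp to drk, and the weakest peak in Raf was nearest to CG2854. The share of a list can be set beside that of all genes by eligible length. This was 4.16% from 1000 to under 2500 bp, 8.69% at 2500 to 4999 bp, 15.5% at 5000 to 9999 bp and 25.2% above. The median eligible length was 4359 bp in this list. A list mixes short and long genes, and its hosts can be the longer ones, so its median is only a rough guide. The shares were not weighed by the length of each listed gene.

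In the BMP and activin pathway 5 of 14 eligible genes held 8 peaks with a median of 120. Mad, the Smad that carries the signal to the nucleus, had 202, with 108 in replicate 1 and 96.7 in replicate 3. wit, a type II receptor gene, had 136, with the start of CG32259 at 1109 bp and its own at 1119 bp, and put, another, had 110. shn, the gene of the zinc finger cofactor Schnurri, held 4 of up to 145, and sog, the gene of the extracellular antagonist Short gastrulation, had 85. Besides these came the 2 peaks beside brk in CG1677. In the Wnt pathway 5 of 16 eligible genes held 6 peaks, with a lower median of 98.3. They were the ligand gene wg, the receptor genes fz at 110 and arr at 109, the kinase gene sgg and the feedback inhibitor gene nkd at 102. The peak in fz lay 58825 bp from the nearest start of fz and was nearest to CG13482, and the stronger of 2 in arr lay 10690 bp from a start of arr and was nearest to CG43192. The peak in Ggt-1, a gene outside the Wnt list, was nearest to Wnt5, which is in it, and had 82.3. The median eligible length was 3150 bp in the BMP list and 4574 bp in the Wnt list.

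Of the axon guidance and neural adhesion genes, 7 of 32 held 8 peaks with a median of 120, with Sdc, the syndecan gene, at 174, Ten-a at 134 and dlp, the glypican gene, at 132. The guidance ligand genes sli and NetB and the receptor genes fra and PlexB made up the rest, of which the peak in NetB was nearest to hog and that in fra to CG33752. The median eligible length of this list was 4954 bp. The Polycomb and trithorax list had 4 hosts of 28, namely Trl at 431, trx at 346, jing at 108, where CG15233 had the nearest start, and ph-p. trx encodes the founding trithorax methyltransferase, and its peak had 184 in replicate 1 and 160 in replicate 3. In the Notch list mam and neur, the gene of a ubiquitin ligase of Delta, were the hosts among 17, and 2 of the 4 peaks in mam were nearest to CG18371. The median eligible lengths of these lists were 720 and 974 bp, but their hosts had more. It was 3209 bp in ph-p to 17960 bp in jing, and 9492 bp in neur and 23249 bp in mam. The ecdysone list had 3 of 13, with Eip75B at 104, Hr3 at 103 and tai at 98.2. Its genes had a median of 12329 eligible bp, and its share of 23.1% is near that of all genes above 10000 bp. The Hippo list had 3 of 16, with kibra at 108, crb at 92.1 and dco at 84.2, and a median eligible length of 2791 bp. Peaks of both lists were below the median of the class.

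The remaining lists held from 0 to 2 hosts each. CycE at 118 and E2f1 at 95.7, both of the G1 to S transition, were the hosts among 20 cell cycle genes. InR, among 16 genes of insulin and TOR signalling, held 2 peaks. Pdp1 was the host among 8 clock genes and Msp300 among 22 muscle genes. The shares in the insulin and muscle lists, 6.25% and 4.55%, were near the 4.38% of all eligible genes. Genes outside these partial lists were hosts too, such as ImpL2 with up to 216, PRAS40 with up to 136, tmod with 217 and rols with up to 146. They were named because they are hosts, with no count of similar genes that held no peak, so they do not bear on these shares. None of 10 eligible gap and pair-rule genes held a peak. Their median eligible length was 652 bp, and of all genes with under 1000 eligible bases only 0.404% were hosts. Of the GATA list only ush held peaks, 3 in number, among 6 genes. In the Sp/KLF family 1 of 5 eligible genes was a host. luna, a gene of the KLF6 and KLF7 type, had a peak at 11090454 on 2R with a signal of 183, with 98 in replicate 1 and 78.5 in replicate 3. Its window held the Sp/KLF box, and its nearest start was that of the nested gene CG43188, 4868 bp away.

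The Sp/KLF box was found in 51 of the 506 windows (10.1%, 7.6 to 13), beside 11.3% of all IDR peaks. In windows centred 500 bp to either side it was found in 4.94% (3.69 to 6.46), and in windows of the same length tiled over all eligible intron in 4.33%. Promoter peaks had it in 6.47% (5.17 to 7.99) and proximal peaks outside protein-coding genes in 13.3%. The other relaxed peaks in the same introns had it in 8.23% (7.55 to 8.95), so the interval of the IDR peaks takes in their share. Most intronic peaks thus held no match to these words. The share was 10.1% among the strongest 168 peaks, 8.33% among the middle 168 and 11.8% among the weakest 170, so signal did not order the peaks by the box.

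Word by word, CACGCCC was the commonest at the summits. It was in 41 of the 506 windows (8.1%, 5.88 to 10.8), in 1.09% of windows 500 bp away (0.544 to 1.94) and in 1.22% of eligible intron, beside 9.47% of all IDR peaks. Promoter peaks had it in 5.26% (4.08 to 6.65), intronic peaks beyond 5000 bp in 13.3% (9.22 to 18.4) and the other relaxed peaks in 4.35%. CACACCC was in 0.988% of the intronic windows, in 0.791% of windows 500 bp away and in 1.17% of eligible intron. The word CCCACCC was in 0.395% (0.0479 to 1.42), 1.78% (1.06 to 2.8) and 1.31% in the same order, and CCCGCCC in 1.78%, 1.48% and 0.899%. All IDR peaks had these 3 words in 0.857%, 0.612% and 1.67%. The share of CACGCCC was thus several times that of nearby intron, that of CCCACCC was below it, with intervals that overlap, and those of the other words were near it.

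**Figure D4:**
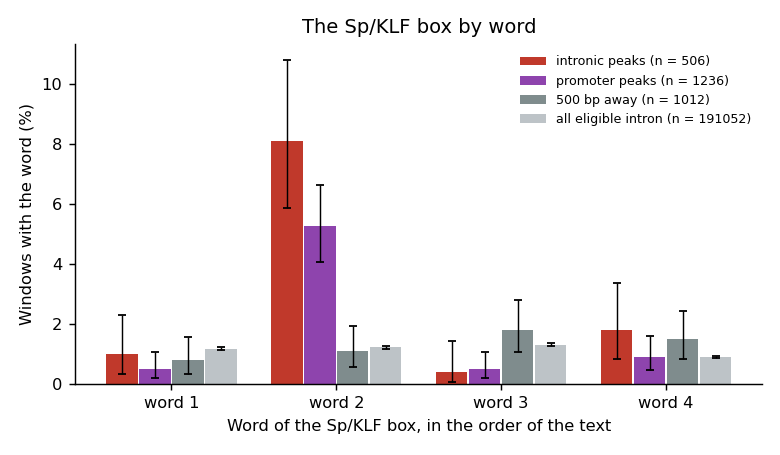
Share of windows, 50 bp to either side of their centre, that hold each word of the Sp/KLF box, in the order CACACCC, then CACGCCC, then the word CCCACCC, and last the word CCCGCCC, at intronic peaks, promoter peaks, windows 500 bp from the intronic summits and all eligible intron. Bars carry 95% Clopper-Pearson intervals; the second word stands at 8.1% of intronic peaks and 1.09% of windows 500 bp away.

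These 41 peaks held 48 sites of CACGCCC that lay wholly in the window. Around all 506 summits, counted by the middle of the word and so also where it crosses the edge of the window, bins of 50 bp held 30 and 20 sites on the left and right of the summit, and from 3 to 9 in each further bin out to 250 bp. By the strand of the host gene 28 of the 48 read CACGCCC on the sense strand and 20 on the other. Of the 48, 36 had G at the second base before the word (75%, against 49.1% of 1994 sites in eligible intron), and 37 had C directly before it (77.1% against 54.5%). None had A at the second base after it, where 14.4% of sites in eligible intron do. Peaks with the word had a median signal of 111, near that of the class, and a GC content of 53.5%, against 32.7% in those without.

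Of the other 12 motifs looked for on both strands, TATAAA, the core of the TATA box, was more frequent at the summits than around them. It was in 18.4% of intronic windows (15.1 to 22), in 12.4% of windows 500 bp away (10.4 to 14.5) and in 13.8% of eligible intron, beside 19.1% of all IDR peaks. It was in 23.8% of the strongest 168 windows and in 15.9% of the weakest 170. GAGAG, bound by GAGA factor, was in 12.3% (9.52 to 15.4), beside 11% of all IDR peaks, 16.9% of windows 500 bp away and 11.1% of eligible intron. GCCAT, the core of the Pho site, was in 15% (12 to 18.4), beside 15.5% of all IDR peaks, 17.1% of windows 500 bp away and 19.5% of eligible intron. GATAAG, the GATA factor site, was in 5.73% (3.87 to 8.13), beside 5.3%, 5.24% and 5.11% in the same order. TATCGATA, the DRE of core promoters, was in 1 intronic window (0.198%) but in 3.32% of promoter windows (2.39 to 4.47), beside 1.8% of all IDR peaks, 0.395% of windows 500 bp away and 0.182% of eligible intron. These words are short and differ in base content, and the intronic windows are AT-rich, which was not separated from the shares.

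The remaining 7 motifs were each in under 5% of the windows, and their intervals took in the share in eligible intron for all but AGNNGGCGC. This core of the CTCF site was in 8 windows, or 1.58% (0.685 to 3.09), in 0.645% of eligible intron and in 2.37% of all IDR peaks. It was in 0.988% of windows 500 bp away and in 1.03% of the other relaxed peaks in the same introns, both within that interval. CACACACA was in 2.77%, beside 1.88% of all IDR peaks, and CACATG, read by Twist and Snail, in 4.15% beside 3.67%. CAGGTA, the Zelda word, was in 1.58% beside 1.8%, and TGANTCA, the AP-1 site, in 2.17% beside 1.88%. CATTCCA, read by Scalloped, was in 1.19% beside 1.39%, and CACGTG in 0.791% beside 0.898%.

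Base composition changed sharply at the summits. The median GC content of the windows was 33.7% at intronic peaks, 40.6% at 500 bp to either side and 39.6% over eligible intron. The mean profile was lowest at the summit, at 35.6%, rose to 43.3% at 200 and 300 bp on the right and to 43.1% at 300 bp on the left, and was 40.8% and 41% at 1000 bp on the left and right. Promoter peaks had a like dip, to 36%, on a richer background. The other relaxed peaks in the same introns had 39.5% at the summit, with nearly no dip. The GC-rich windows with CACGCCC were a minority within this AT-rich class. Whether composition bears on the recovery or calling of these peaks was not tested, and the control libraries were not analysed here.

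**Figure D5:**
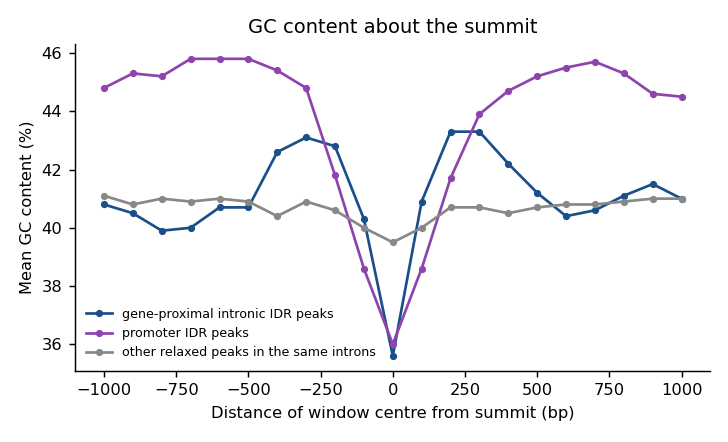
Mean GC content of windows reaching 50 bp to either side of their centre, at steps of 100 bp from the summit, for the intronic IDR peaks, promoter IDR peaks and other relaxed peaks in the same introns. The intronic IDR peaks fall to 35.6% at the summit between shoulders of about 43%, and the other relaxed peaks stay near 40%.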

How the data were processed

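The data are peak lists in dm6 coordinates, deposited for each of the 2 replicates (30000 and 26271 relaxed peaks), for their pooled reads (30000) and as an IDR-thresholded list (2451), made from alignments and a control file, per the file records. The deposited signal per peak and its −log10 q are the authors' values; 89.3% of the intronic peaks share the highest −log10 q, so signal alone ranked them. The IDR list equals the pooled peaks of highest signal. Not given in the sources used here were the aligner, the peak caller and the cutoff of IDR. No file holds read counts, so depth is unknown. Replicates are biological per the labels, which do not say how collections were kept apart. The lists in dm3 and the control libraries were not used here.

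Summits were placed on Ensembl release 115 (annotation version 54) and the RefSeq sequence of Release 6; 13944 of 13945 protein-coding genes had the same ends in both. The label of the class was checked against both this exon annotation and the rule. Where 24 summits had several hosts, the host with the nearest start was taken. Relaxed peaks outside the IDR list are those that overlap no IDR peak. Motifs were searched up to 50 bp from the summit. Sequences on 2R are not shown. Shares have Clopper-Pearson and densities exact Poisson intervals at 95%. Named are the 12 strongest peaks, the 6 genes with most peaks, the Sp/KLF genes, up to 3 peaks for each list with at least 2 host genes and the peaks at each limit; other names were chosen after their values were seen. Members, motifs and lists were chosen with earlier results of these data known. Of 279 list symbols 275 were matched, 2 of them by synonym; 4 are not reported here. The placement of summits was checked against a direct search at random positions of chromosome 4, and the motif search on made windows with planted words. The intervals were not part of these checks. Alternatives changed the limits, start sites, transcripts, windows and lists, and left out each replicate. Python 3.11.15, numpy 2.4.6, scipy 1.17.1 and matplotlib 3.10.9 were used.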

Additional observations from a re-analysis of the deposited data

How the results depend on the processing

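With a lower limit of 1000 bp there were 333 peaks at 19.2 per Mb, 99.7% of them in both replicates. With an upper limit of 2000 bp there were 316 at 31.8 per Mb, 59.8% in first introns and 92.4% nearest to a start of the host. With 1 start site per gene the density was 28.3 per Mb, 63.7% were in first introns, 77.7% nearest to the host's start, and 16.6% of hosts had a promoter peak. Among the 1225 strongest IDR peaks 248 qualified (11.7 per Mb, 99.6% in both replicates, median signal 152) in 207 hosts, 23.7% of them with a promoter peak, beside 8.1% of eligible genes. By the longest transcript 56.5% were in first introns. Matching summits within 100 bp gave 93.5% in both replicates. The box was in 6.13% of windows of 25 bp either side and in 14.4% of 100 bp.

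With the 2451 strongest peaks of 1 replicate in place of the IDR list there were 480 to 509 peaks at 22.7 to 24 per Mb in 377 to 397 hosts. First introns held 50.9 to 54%, the host's start was nearest in 88.5 to 89% and 9.63 to 12.1% had the box. Of hosts, 27.7 to 31% had a promoter peak. In both replicates were 97.7 to 98%, where the match in the replicate that gave the list is fixed. The median signal, 51.7 to 65.6, is on the scales of the replicate lists. The density in first introns was above that in later ones in all of these settings of limits, start sites, lists and replicates. Counting exons of protein-coding genes only, an alternative added after seeing the data, gave 516 peaks, with the 9 results near those reported. No paired analysis was possible because there is 1 group and no contrast. The unknown depth limits all statements on weak peaks.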
